A study of Mus musculus with 7 samples.

Results

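Immediate early genes and genes induced by tissue dissociation were followed as 1 set of 45 named mouse genes across the cell types of dissociated pancreatic islets. The set was a fixed list of gene names, and all 45 were found among the 23465 genes of the tables and entered the tests. It holds 8 AP-1 and related bZIP factors (Fos, Fosb, Fosl2, Jun, Junb, Jund, Atf3, Maff), 10 zinc finger, nuclear receptor and other early factors (Egr1, Egr3, Klf2, Klf4, Klf6, Klf10, Nr4a1, Nr4a2, Nr4a3, Myc) and 10 other early response genes (Ier2, Ier3, Ier5, Btg1, Btg2, Mcl1, Rhob, Sik1, Per1, Ccn1). The rest are 3 mRNA decay factors (Zfp36, Zfp36l1, Zfp36l2), 4 feedback inhibitors (Dusp1, Dusp6, Nfkbia, Socs3), 3 growth arrest genes (Gadd45a, Gadd45b, Gadd45g), 4 heat shock genes (Hspa1a, Hspa1b, Hspb1, Dnajb1) and 3 Id genes (Id1, Id2, Id3).

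The values come from 2 single-cell libraries, replicates 1 and 2, of islets from female C57BL/6 mice aged 10 weeks. They were made with a modified droplet 5′ assay, in which nucleotides were added and extension was lengthened. Before reading, insulin cDNA was cut out with Cas9, and the rest was read by Nanopore sequencing. Of the 7 samples and 4 groups in the labels, the 3′ and unmodified 5′ libraries were not analysed here. Every library came from islets freed with collagenase injected through the bile duct and then separated into cells with Accutase, and no group of undissociated islets is among the labels. Levels present in the animal and levels gained during isolation therefore cannot be told apart.

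Immediate early genes are transcribed within minutes of a stimulus by factors already present in the cell, such as SRF and CREB, and need no new protein. Their mRNAs are short-lived, and several of them encode the phosphatases, inhibitors and RNA-decay proteins that end the response. Enzymatic dissociation of tissue is known to induce many of them, together with heat shock genes, while in islet cells depolarisation, calcium and cAMP are known to act on the same genes. Id genes are targets of BMP and TGF-beta signalling in many tissues.

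Replicate 1 held 4814 cells with 11012364 UMIs (unique molecular identifiers, which count molecules) and a median of 2110 UMIs per cell. Replicate 2 held 1093 cells with 12092393 UMIs and a median of 9949. The libraries shared 5 barcodes among the kept cells. Cell types are the authors' names, which were made from clusters of the same genes, so tests of genes between them are circular in part. In replicates 1 and 2 they covered 141 and 26 endothelial cells, 118 and 27 stellate cells, 62 and 7 macrophages, 961 and 239 alpha cells, 283 and 41 PP cells, 965 and 318 delta cells and 2284 and 435 beta cells. Every marker in the list of each type was detected in that type in both libraries. The cells named endothelial also carried duct markers (6 and 7 of 7 detected, summed at 4516 and 18937 CPM, with Cftr at 0 in replicate 1). These came with 1 cluster, number 15, that supplied 12 of the 141 and 16 of the 26 endothelial cells. It supplied 37392 of the 207722 and 289439 of the 353271 UMIs of the type. Replicate 2 levels named endothelial are thus mostly levels of cluster 15. Endothelial markers summed to 14601 and 3057 CPM, so in replicate 2 the duct markers stood above them. The cells named stellate carried alpha markers at 19443 and 22070 CPM. Their stellate markers summed to 25166 and 13736 CPM, so in replicate 2 the alpha markers stood above them. Neuron or Schwann markers summed to 7.68 and 917 CPM in stellate cells, with 1 and 7 of 7 detected. The delta class held 6 clusters. Number 3, led by delta markers, supplied 435 of the 965 and 157 of the 318 cells. In the whole class delta markers summed to 99395.5 and 73168 CPM. Beta markers summed to 51478 and 44970 CPM there, and PP markers to 42618 and 59744. Levels below are CPM, the UMIs of a gene scaled to 1000000 UMIs of that cell type in that library, and 2 values joined by "and" are those of replicate 1 and replicate 2 in that order.

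The summed level of the set was highest in endothelial cells and lowest in beta cells in both libraries. The 45 genes together took 17105 and 47476 CPM in endothelial cells, 16569.9 and 27985 in stellate cells, 7560.0 and 28649.8 in macrophages, 5567 and 10077 in alpha cells, 5405 and 14733 in PP cells, 3887 and 7592 in delta cells and 2535 and 3504 in beta cells. Stellate cells came after endothelial cells in replicate 1, and macrophages did so in replicate 2. Each type stood higher in replicate 2. The 2 libraries of alpha, PP and delta cells overlapped one another, whereas the beta cell values lay under all the others. Averaged over the libraries, 33 of the 45 genes had their highest level among the 6 tested types in endothelial cells, 11 in stellate cells and 1, Btg2, in PP cells. For 17 of the 33 and 7 of the 11 this held in each library by itself, and for Btg2 it held in neither. The lowest level was in beta cells for 34 genes (25 of them in each library), in alpha and in PP cells for 4 each and in delta cells for 3. Such ranks were counted for the 45 genes only. Whether genes outside the set rank the types in the same way was not counted. Mitochondrial UMIs, at 1.12 and 1.29% in endothelial cells and 1.52 and 3.66% in beta cells, and the median depth, at 1121 and 10417 UMIs per endothelial cell and 2223.5 and 9947 per beta cell, also differed between types and libraries. Their part in these levels was not tested.

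**Figure D1:**
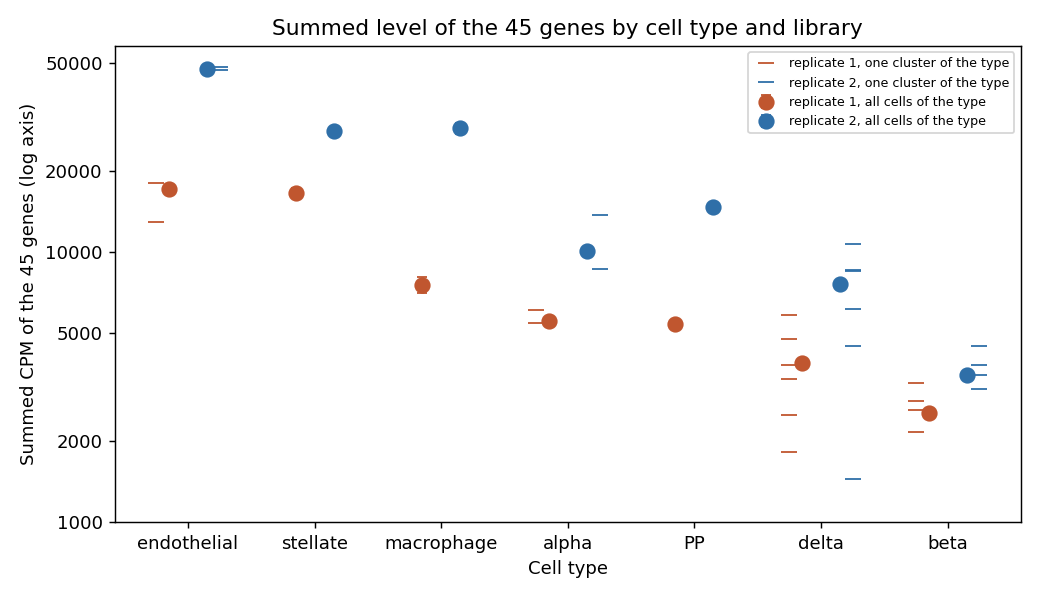
Summed level of the 45 genes in CPM (log axis) in each cell type, with replicates 1 and 2 as separate points, 95% counting intervals as bars (mostly hidden by the points), and a short line for each cluster of types that hold several. Endothelial cells reached 17105 and 47476 CPM, and beta cells, at 2535 and 3504 CPM, lay lowest in both libraries.

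The summed level also varied between the clusters within a type. The 4 beta clusters ranged from 2155 to 3267 CPM in replicate 1 and from 3115 to 4484 CPM in replicate 2. Alpha clusters 1 and 9 stood at 5463 and 8624 and at 6085 and 13725 CPM. Among the delta clusters, number 3 reached 3818 and 8563 CPM, number 12 (Sst beside Gcg) reached 5851 and 10678, and number 16, with 7 cells in each library, had 1818 and 1451. Endothelial cluster 11, led by endothelial markers, stood at 18018 and 48565 CPM and the duct-marker cluster 15 at 12944 and 47236, so the summed level was high in both.

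**Figure D2:**
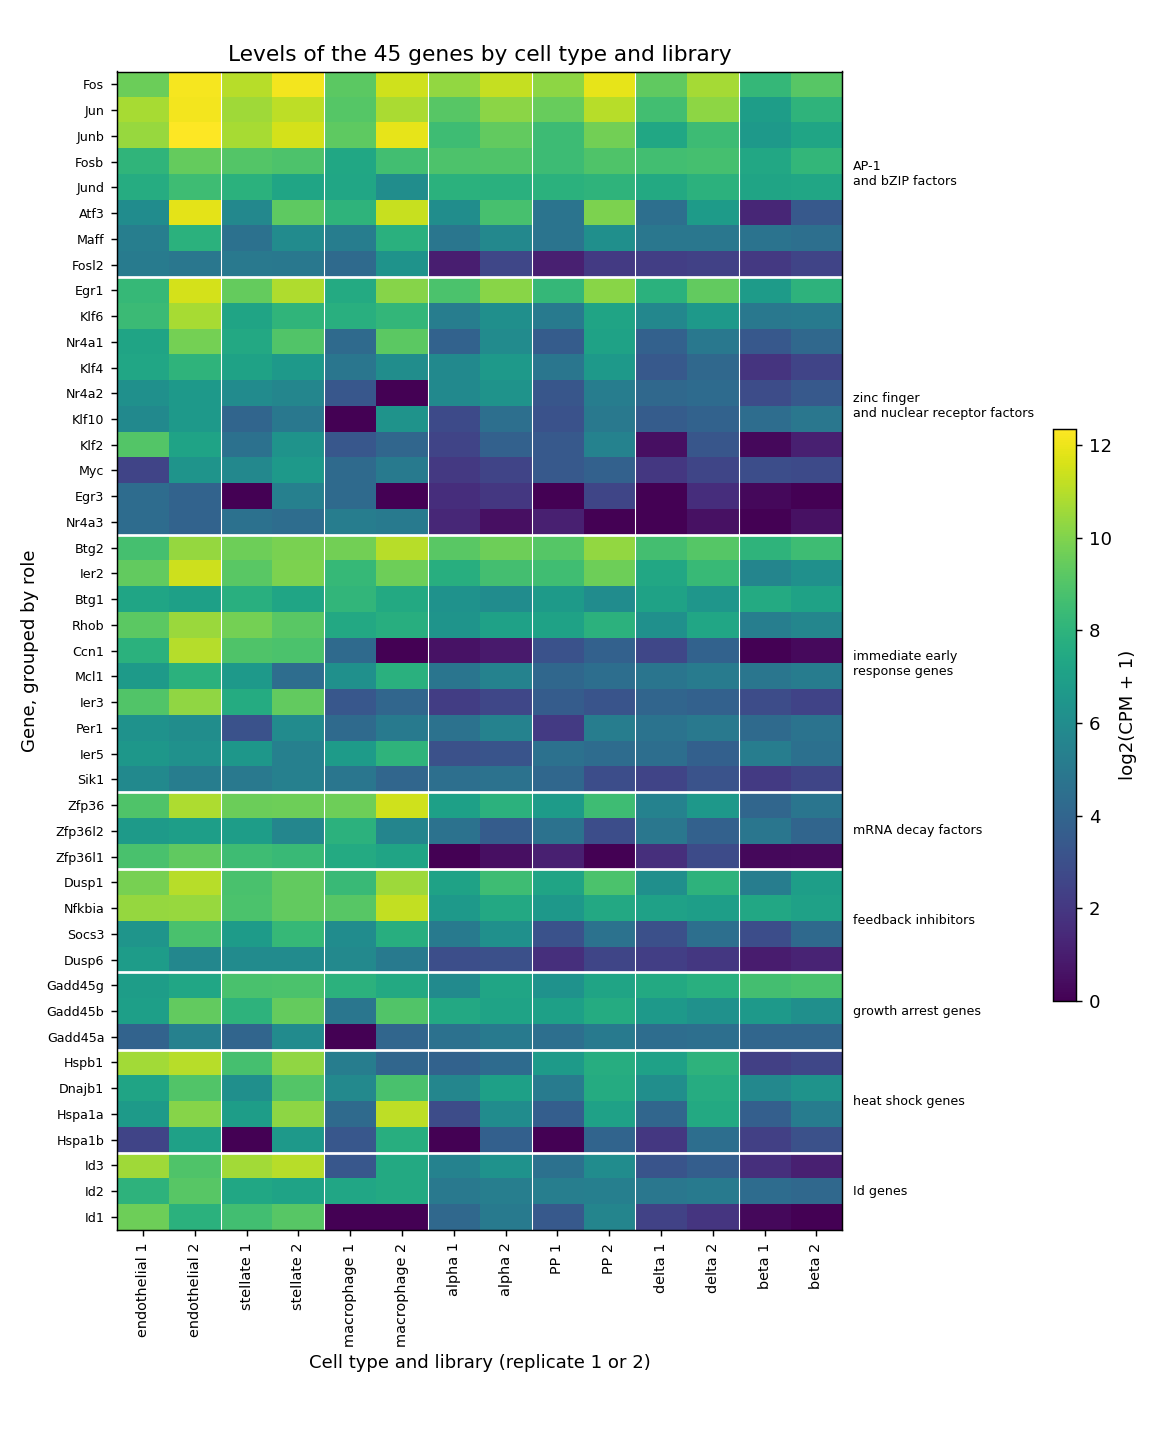
Level of each of the 45 genes (down the page, grouped by role) in every cell type and library (columns), as a colour scale of log2(CPM + 1). Endothelial and stellate columns are the highest for most genes, and Id1, Id3, Klf4 and Atf3 stand far lower in beta cells than in alpha or PP cells.

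Tests between types used edgeR's quasi-likelihood test on UMI sums of the 2 libraries, with the library as a block and Benjamini-Hochberg adjustment over all 13265 genes tested. Fold changes are on the log2 scale with their standard errors, and n is 2 libraries per type. Against the mean of the 4 endocrine types, 38 of the 45 genes were higher in endothelial cells and 1 was lower, where 17.9% of all genes tested were called higher and 15% lower. In stellate cells 31 were higher and none lower, against 10.2% and 6.47% of all genes. DESeq2 also called 0 of the 45 lower in stellate cells, where it called 445 of all 13265 genes lower. In edgeR 37 of the 45 had an unadjusted p under 0.05 in either direction. Against beta cells, 29 were higher and 3 lower in alpha cells (9.13% and 9.91% of all genes), 27 higher and 1 lower in PP cells (8.89% and 8.43%), and 21 higher and 3 lower in delta cells (8.78% and 5.01%). The median log2 fold change over the 45 genes was 2.85 in endothelial cells, 1.72 in stellate cells, 1.59 in alpha cells, 1.75 in PP cells and 0.91 in delta cells. Over all genes tested it was -0.11, -0.26, 0.016, -0.034 and 0.0039. The alpha, PP and delta comparisons share their beta cell sums, and all 5 share endocrine sums. Every called gene moved the same way in each library except Egr1, Myc and Gadd45b in endothelial cells. The library term takes out the shift between replicates that all types share. Without it the higher counts were 35 in endothelial, 21 in stellate, 15 in alpha, 16 in PP and 4 in delta cells. Of all 13265 genes, 2097, 1163, 616, 576 and 666 were then called higher, in the same order. Leaving out the duct-marker cluster 15 gave 36 higher and 2 lower in endothelial cells (1675 and 2264 of all 13085 genes). The median was then 2.44. This alternative rested on 10 endothelial cells with 63832 UMIs in replicate 2, under the 20 cells asked of a type in the main fit. Cluster 3 alone standing for delta cells gave 17 higher and 3 lower (907 and 833 of all 11793 genes), with a median of 0.83.

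**Figure D3:**
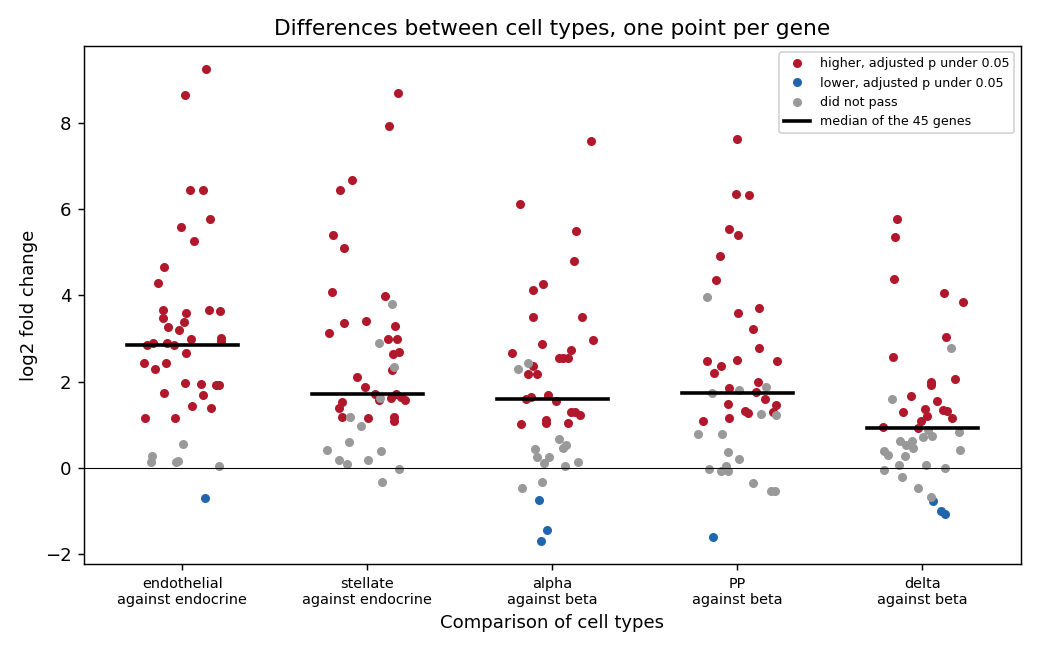
Log2 fold change of each of the 45 genes (points) in each comparison, with red and blue points for genes higher or lower at an adjusted p under 0.05, grey points for the others and a line at the median. Most points lie above 0, with medians from 0.91 in delta cells to 2.85 in endothelial cells.

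Among the AP-1 and bZIP factors, 5 of 8 were higher in endothelial cells, 5 in stellate cells, 7 in alpha cells, 7 in PP cells and 5 in delta cells, and none was lower in any of the 5 comparisons. Fos (GRCm38 chromosome 12, 85473890 to 85477273), which pairs with Jun proteins to form AP-1, stood at 751 and 4603 CPM in endothelial cells, 2074 and 4484 in stellate cells, 595 and 2791 in macrophages, 1286 and 2492 in alpha cells, 1228 and 3781 in PP cells, 634 and 1618 in delta cells and 297 and 557 in beta cells. The beta cell values were the lowest in both libraries, while stellate cells were highest in replicate 1 and endothelial cells in replicate 2, and endothelial cells of replicate 1 lay under alpha and PP cells. Fos was higher than in beta cells in alpha (log2 fold change 2.56 ± 0.36, adjusted p = 3.4e-06), PP (2.79 ± 0.37, 1.8e-06) and delta cells (1.33 ± 0.35, 0.0082). Against the endocrine mean, stellate cells were higher (1.15 ± 0.26, 0.0018), and the endothelial value of 0.55 ± 0.27 did not pass (adjusted p = 0.13). Without the library term the Fos calls in alpha, delta and stellate cells were lost (adjusted p = 0.079, 0.45 and 0.24).

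Atf3 (chromosome 1, 191170296 to 191218039), a stress-induced repressor of the ATF/CREB family, had the largest alpha and PP folds over beta cells of the 8. It stood at 62.6 and 3694 CPM in endothelial cells, 53.8 and 615 in stellate cells, 256 and 2565 in macrophages, 64.3 and 434 in alpha cells, 26.2 and 975 in PP cells, 21.8 and 109 in delta cells and 1.47 and 10.0 in beta cells. The 2 libraries were far apart in every type, and beta cells were lowest in both libraries. The fold over beta cells was 6.11 ± 0.59 in alpha cells (adjusted p = 3.9e-09), 6.35 ± 0.60 in PP cells (4.6e-09) and 3.86 ± 0.60 in delta cells (2.0e-05). Without the library term none of these Atf3 calls passed (adjusted p = 0.087, 0.059 and 0.37). Jun, the AP-1 partner of Fos, had 1685 and 4549 CPM in endothelial cells, 1521 and 2187 in stellate cells, 540.0 and 1742 in macrophages, 569 and 1176 in alpha cells, 708 and 2074 in PP cells, 393 and 1212 in delta cells and 115 and 257 in beta cells. Jun was higher than in beta cells by 3.22 ± 0.32 in PP cells (adjusted p = 1.2e-08) and by 2.06 ± 0.31 in delta cells (1.1e-05, and 0.11 without the library term). Fosb, the Fos relative treated with the retained introns further on, had 269.6 and 699 CPM in endothelial cells, 522 and 474 in stellate cells, 165 and 387 in macrophages, 480.3 and 498 in alpha cells, 347 and 487 in PP cells, 391 and 410.3 in delta cells and 167 and 285 in beta cells. Its beta cell values were the lowest of the 6 tested types in both libraries, and alpha cells were 1.59 ± 0.28 over them (adjusted p = 9.2e-05).

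Junb, Jund, Maff and Fosl2 completed the group. Junb differed from beta cells by 2.37 in alpha, 2.50 in PP and 0.94 in delta cells, each past the threshold. Jund, which many resting cells express, was nearer to even, at 1.03 (adjusted p = 0.0029), 1.09 (0.0029) and 0.52 (0.19). Maff, a small Maf protein, was 1.74 ± 0.32 over the endocrine mean in endothelial cells (adjusted p = 5.9e-05) and -0.03 ± 0.69 in stellate cells (0.996). Fosl2, which rested on 113 UMIs in all, was 2.89 ± 0.59 in endothelial (adjusted p = 2.9e-04) and 3.00 ± 0.85 in stellate cells (0.013) over the endocrine mean.

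As context for genes known by how their promoters respond, the 250 bases upstream of the RefSeq start are shown for 5 of them, chosen for the results that turn on them: Fos and Atf3, Ccn1, which separated endothelial, stellate and delta cells from beta cells, and the heat shock genes Hspa1a and Hspb1. RefSeq promoter entries (GRCm38.p6) matched 37 of the 45 genes, with 41 entries. Each sequence is on the strand of its gene, 5′ to 3′. Capitals mark a TATAAA, a short CRE site (TGACG, or CGTCA on the other strand) or an inverted repeat of the heat shock type (GAANNTTC or TTCNNGAA).
Fos, chr12:85473640-85473889, plus strand: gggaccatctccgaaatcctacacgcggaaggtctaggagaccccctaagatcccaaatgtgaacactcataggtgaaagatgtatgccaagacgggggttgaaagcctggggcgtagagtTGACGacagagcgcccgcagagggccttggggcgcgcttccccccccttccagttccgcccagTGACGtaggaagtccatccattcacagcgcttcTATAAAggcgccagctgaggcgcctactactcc
Atf3, chr1:191183334-191183583, minus strand: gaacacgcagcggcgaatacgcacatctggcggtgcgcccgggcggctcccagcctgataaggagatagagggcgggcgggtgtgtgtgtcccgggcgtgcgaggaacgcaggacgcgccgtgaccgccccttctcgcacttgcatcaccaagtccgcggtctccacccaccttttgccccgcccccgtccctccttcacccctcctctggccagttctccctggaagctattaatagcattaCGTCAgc
Ccn1, chr3:145649986-145650235, minus strand: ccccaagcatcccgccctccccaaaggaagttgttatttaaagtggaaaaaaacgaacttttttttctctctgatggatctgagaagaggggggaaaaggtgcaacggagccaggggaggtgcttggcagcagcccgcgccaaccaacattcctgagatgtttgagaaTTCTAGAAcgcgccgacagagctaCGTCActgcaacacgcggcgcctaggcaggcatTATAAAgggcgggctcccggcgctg
Hspa1a, chr17:34972157-34972406, minus strand: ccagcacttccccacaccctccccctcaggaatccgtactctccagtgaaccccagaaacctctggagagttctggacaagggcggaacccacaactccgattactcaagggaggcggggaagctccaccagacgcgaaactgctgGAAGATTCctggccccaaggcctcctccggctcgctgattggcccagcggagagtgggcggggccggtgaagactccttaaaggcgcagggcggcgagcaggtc
Hspb1, chr5:135887669-135887918, plus strand: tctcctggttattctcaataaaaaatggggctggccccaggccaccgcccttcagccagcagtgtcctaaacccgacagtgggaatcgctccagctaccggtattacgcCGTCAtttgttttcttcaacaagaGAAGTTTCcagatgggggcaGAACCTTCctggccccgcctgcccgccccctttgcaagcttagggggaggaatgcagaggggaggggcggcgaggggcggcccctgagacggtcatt

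In these windows Fos had TATAAA at 33 to 28 bases before the start and short CRE sites at 129 to 125 and 66 to 62. Atf3 had a short CRE site at 7 to 3 bases before the start. The last 7 bases of that window lie in the first exon of the main Atf3 transcript in the tables, which took 2993 of the 3028 transcript UMIs of Atf3, so the site is inside that transcript. In its window Hspb1 had inverted repeats at 117 to 110 and 97 to 90. Searched on both strands over the 41 entries and over 32851 RefSeq promoter windows of the same length, the whole CRE (TGACGTCA) occurred in 3 entries, of Btg2, Dusp1 and Maff, or 7.32% against 1.55% of all windows. The short site TGACG, which the whole CRE contains, occurred in 20 entries (48.8% against 17.8%), and TATAAA in 7 (17.1% against 12.4%). The CArG box, the binding sequence of SRF, occurred in 1 (2.44% against 1.47%), that of Zfp36. The heat shock element (GAANNTTC followed at once by NNGAA) was in no entry (0.466% of all windows), GAANNTTC in 5 (12.2% against 6.69%) and TTCNNGAA in 1 (2.44% against 7.17%). The short site and the short repeats were added after the whole motifs had been counted. A match is a match of letters, and its absence says only that these letters are not in the window.

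Of the 10 zinc finger, nuclear receptor and other early factors, 10 were higher in endothelial cells, 6 in stellate cells, 7 in alpha cells, 6 in PP cells and 5 in delta cells, and 1, Klf10, was lower in delta cells. Klf4 (chromosome 4, 55527143 to 55532466), a Krüppel-like factor of differentiation and growth arrest, stood at 159 and 260.4 CPM in endothelial cells, 138 and 101 in stellate cells, 27.5 and 64.5 in macrophages, 56.5 and 99.8 in alpha cells, 27.3 and 96.5 in PP cells, 10.0 and 17.2 in delta cells and 2.57 and 4.79 in beta cells. Every alpha and PP value lay above every delta and beta value. The fold over beta cells was 4.81 ± 0.31 in alpha (adjusted p = 1.3e-12) and 4.35 ± 0.36 in PP cells (3.0e-10). Nr4a2, an orphan nuclear receptor induced by calcium and cAMP, had 72.2 and 99.1 CPM in endothelial cells, 61.5 and 50.4 in stellate cells, 9.15 and 0 in macrophages, 56.5 and 78.8 in alpha cells, 8.75 and 36.0 in PP cells, 17.0 and 18.9 in delta cells and 6.25 and 9.80 in beta cells, and was 3.49 ± 0.27 higher in alpha than in beta cells (adjusted p = 3.8e-11).

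Egr1, an early growth response factor, stood at 308 and 2955 CPM in endothelial cells, 684 and 1905 in stellate cells, 183 and 1113 in macrophages, 466 and 1118 in alpha cells, 295 and 1137 in PP cells, 238 and 667 in delta cells and 109.7 and 248 in beta cells. Its fold over beta cells was 2.55 ± 0.35 in alpha (adjusted p = 2.3e-06), 2.20 ± 0.35 in PP (3.8e-05) and 1.29 ± 0.34 in delta cells (0.0087), and over the endocrine mean 1.16 ± 0.26 in endothelial (8.6e-04) and 1.19 ± 0.28 in stellate cells (0.0023). The endothelial difference was -0.034 in replicate 1 alone and 1.83 in replicate 2 alone. All 5 Egr1 calls were lost without the library term (adjusted p = 0.13, 0.16, 0.58, 0.11 and 0.30).

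Klf2, a factor that blood flow induces in vascular endothelium, had 519.9 and 144 CPM in endothelial cells, 23.0 and 80.6 in stellate cells, 9.15 and 16.1 in macrophages, 4.71 and 13.1 in alpha cells, 9.84 and 44.2 in PP cells, 0.435 and 8.85 in delta cells and 0.184 and 1.14 in beta cells. Within endothelial cells it stood at 634 and 611 CPM in cluster 11 and at 0 and 41.5 CPM in the duct-marker cluster 15. The endothelial fold over the endocrine mean was 5.59 ± 0.44 (adjusted p = 1.9e-11), and 6.59 without cluster 15. Klf6 had the other order within endothelial cells, with 305 and 157 CPM in cluster 11 and 508 and 2004 in cluster 15. Klf10, a TGF-beta-induced factor, fell by 1.00 ± 0.29 in delta against beta cells (adjusted p = 0.018). Nr4a1, an orphan nuclear receptor and textbook immediate early gene, was 3.67 ± 0.25 in endothelial (adjusted p = 1.1e-12) and 3.29 ± 0.35 in stellate cells (1.9e-08) over the endocrine mean. Egr3 and Nr4a3 rested on 39 and 29 UMIs in all, and Myc, the growth-promoting bHLH factor, on 175. In endothelial cells Egr3 was 3.59 ± 1.00 (adjusted p = 0.0058) and Nr4a3 4.65 ± 1.02 (6.1e-04). Myc was 2.66 ± 0.49 in endothelial (adjusted p = 6.4e-05) and 3.40 ± 0.63 in stellate cells (1.5e-04). The endothelial Myc level was 4.81 CPM (1 UMI) in replicate 1 and 82.1 CPM (29 UMIs) in replicate 2. In replicate 1 it lay under PP (9.84 CPM) and beta cells (6.61 CPM), so the call rests on replicate 2.

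Of the other early response genes, 8 of 10 were higher in endothelial, 5 in stellate, 5 in alpha, 5 in PP and 4 in delta cells. The genes that were lower were Ier5 and Btg1 in alpha cells and Ier5 in delta cells. Ccn1 (chromosome 3, 145646976 to 145649981), also called Cyr61, encodes a secreted matrix-associated protein. It had 236 and 2029.6 CPM in endothelial cells, 484 and 453 in stellate cells, 18.3 and 0 in macrophages, 0.523 and 0.875 in alpha cells, 7.65 and 13.1 in PP cells, 5.22 and 13.7 in delta cells and 0 and 0.228 in beta cells. Over both libraries there were 766 UMIs in endothelial cells against 1 in beta cells (ratio of CPM 13422, 95% interval 2402 to 530816). Likewise there were 71 UMIs in delta cells against 1 in beta cells (ratio of CPM 106, 95% interval 18.4 to 4241), and 15 UMIs in PP cells against 1 in beta cells (ratio of CPM 96.6, 95% interval 14.9 to 4068). The fitted fold of Ccn1 over the endocrine mean was 8.66 ± 0.35 in endothelial cells (adjusted p = 3.7e-18) and 7.93 ± 0.47 in stellate cells (4.5e-14), values that depend on the prior count where a type is near 0.

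Ier2 and Ier3 are named as immediate early response genes. Ier2 had 659.5 and 2754 CPM in endothelial cells, 584 and 967 in stellate cells, 311 and 790.5 in macrophages, 214 and 400.4 in alpha cells, 377 and 787 in PP cells, 168 and 318 in delta cells and 47.8 and 72.0 in beta cells. It was 3.60 ± 0.32 over beta cells in PP cells (adjusted p = 1.2e-09) and 2.00 ± 0.30 in delta cells (1.3e-05, and 0.087 without the library term). Ier3 had 501 and 1262 CPM in endothelial cells, 192 and 665 in stellate cells, 9.15 and 16.1 in macrophages, 3.66 and 5.25 in alpha cells, 10.9 and 8.18 in PP cells, 15.2 and 13.3 in delta cells and 6.25 and 4.56 in beta cells. Alpha cells were lowest in replicate 1 and beta cells in replicate 2. In the endothelial clusters Ier3 stood at 569 and 1332 CPM in cluster 11 and at 187 and 1247 CPM in the duct-marker cluster 15. Delta cells were 1.32 ± 0.41 over beta cells (adjusted p = 0.027). The folds over the endocrine mean were 6.44 ± 0.25 in endothelial (adjusted p = 1.2e-18) and 5.40 ± 0.36 in stellate cells (5.2e-13).

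Btg2 is an antiproliferative gene and target of p53. By mean level over the 6 tested types it was the 1 gene highest in an endocrine type, PP, which led in neither library. It stood at 414 and 1347 CPM in endothelial cells, 791 and 937 in stellate cells, 842 and 2049 in macrophages, 584 and 776 in alpha cells, 550.0 and 1287 in PP cells, 397 and 551 in delta cells and 263 and 362 in beta cells. It was 1.55 ± 0.30 over beta cells in alpha (adjusted p = 2.9e-04, and 0.11 without the library term) and 1.86 ± 0.31 in PP cells (5.2e-05), while the delta value of 0.63 ± 0.30 did not pass (0.19). The endothelial and stellate values over the endocrine mean, 0.27 ± 0.24 and 0.41 ± 0.26, did not pass either (0.44 and 0.31). Its relative Btg1 was -0.75 ± 0.21 in alpha against beta cells (adjusted p = 0.0099), and Ier5 was -1.44 ± 0.30 in alpha (7.1e-04) and -0.78 ± 0.24 in delta cells (0.029). Rhob, a small GTPase, was 1.70, 2.49 and 1.37 over beta cells in alpha, PP and delta cells, each past the threshold. Sik1, a kinase induced by cAMP, was 2.87 ± 0.36 over beta cells in alpha cells (adjusted p = 3.8e-07). Mcl1, an anti-apoptotic Bcl-2 relative, and Per1, a circadian clock repressor, were 2.29 ± 0.26 and 1.16 ± 0.38 over the endocrine mean in endothelial cells (adjusted p = 2.3e-08 and 0.019). The 3 genes Btg1, Ier5 and Klf10 were named after their values were seen.

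All 3 mRNA decay factors were higher in endothelial and in stellate cells, and 1 in alpha, 1 in PP and 2 in delta cells. They encode tristetraprolin and its relatives, which bind AU-rich elements of short-lived mRNAs and speed their decay. Zfp36 had 496 and 1820.1 CPM in endothelial cells, 761 and 796 in stellate cells, 778 and 2759 in macrophages, 130.3 and 242 in alpha cells, 109 and 361 in PP cells, 43.5 and 94.6 in delta cells and 16.0 and 27.1 in beta cells. It was higher than in beta cells by 3.51 ± 0.33 in alpha (adjusted p = 2.3e-09), 3.70 ± 0.34 in PP (2.6e-09) and 1.67 ± 0.32 in delta cells (3.8e-04, and 0.19 without the library term). Zfp36l1 stood at 438 and 645 CPM in endothelial cells, 361 and 333 in stellate cells, 183 and 145 in macrophages, 0 and 0.438 in alpha cells, 1.09 and 0 in PP cells, 2.18 and 6.06 in delta cells and 0.184 and 0.228 in beta cells. Endothelial cells, stellate cells and macrophages thus held at least 145 CPM and the endocrine types at most 6.06 CPM. Over both libraries there were 319 UMIs in endothelial cells against 2 in beta cells (ratio of CPM 2795, 95% interval 767 to 23177) and 31 UMIs in delta cells against 2 in beta cells (ratio of CPM 23.1, 95% interval 5.88 to 199). Zfp36l1 gave the smallest p among the 45 genes in the endothelial comparison (log2 fold change 9.24 ± 0.27, adjusted p = 3.6e-21). The delta call of Zfp36l1 (4.05 ± 0.69, adjusted p = 7.1e-05) did not pass with cells thinned to 1000 UMIs (0.13). Zfp36l2 was 2.42 ± 0.29 in endothelial (adjusted p = 9.7e-08) and 1.88 ± 0.46 in stellate cells (0.0035) over the endocrine mean.

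The feedback inhibitors were higher in endothelial and stellate cells in 4 of 4 cases each, in alpha cells in 3, and in PP and delta cells in 1. Dusp1 (chromosome 17, 26505590 to 26562128), a phosphatase that switches off MAP kinases, had 900.2 and 2049 CPM in endothelial cells, 438 and 675 in stellate cells, 329 and 1468 in macrophages, 137 and 362 in alpha cells, 147 and 453 in PP cells, 70.5 and 250.1 in delta cells and 36.2 and 119 in beta cells. Beta cells were lowest in both libraries. The fold over beta cells was 2.17 ± 0.27 in alpha (adjusted p = 4.5e-07), 2.37 ± 0.28 in PP (2.7e-07) and 1.08 ± 0.27 in delta cells (0.0048), and none of the 3 passed without the library term (0.12, 0.089 and 0.58). Over the endocrine mean Dusp1 was 2.84 ± 0.19 in endothelial (adjusted p = 4.7e-13) and 1.57 ± 0.24 in stellate cells (1.2e-05, and 0.15 without the library term). Socs3, an inhibitor of cytokine signalling, had 86.7 and 442 CPM in endothelial cells, 108 and 312 in stellate cells, 64.1 and 209.7 in macrophages, 31.4 and 72.6 in alpha cells, 7.65 and 24.5 in PP cells, 6.97 and 21.7 in delta cells and 6.61 and 17.3 in beta cells. Its fold over beta cells was 2.55 ± 0.26 in alpha cells (adjusted p = 1.2e-08, and 0.054 without the library term). Nfkbia, the inhibitor of NF-kappaB that NF-kappaB itself induces, was 3.01 ± 0.19 over the endocrine mean in endothelial cells (adjusted p = 1.2e-13) and 1.72 ± 0.24 in stellate cells (2.9e-06). Dusp6, an ERK phosphatase with 130 UMIs in all, was 4.28 ± 0.43 in endothelial cells (2.4e-09).

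The growth arrest genes, which encode small proteins that bind p38 pathway kinases and cell cycle regulators, went in different directions. Of the 3 genes, 1 was higher and 1 lower in endothelial, 2 and 0 in stellate, 2 and 1 in alpha, 2 and 1 in PP and 0 and 1 in delta cells. Gadd45g (chromosome 13, 51846678 to 51848468) stood at 116 and 159 CPM in endothelial cells, 438 and 453 in stellate cells, 247 and 177 in macrophages, 58.6 and 153 in alpha cells, 76.5 and 149 in PP cells, 182 and 218 in delta cells and 403 and 449.9 in beta cells. Stellate and beta cells were the high types, and alpha, PP and endothelial cells the low ones, in both libraries. Gadd45g was lower than in beta cells in alpha (log2 fold change -1.69 ± 0.26, adjusted p = 1.2e-05), PP (-1.60 ± 0.27, 8.7e-05) and delta cells (-1.08 ± 0.25, 0.0025). Without the library term the delta and PP calls were lost (0.23 and 0.054). Against the endocrine mean, Gadd45g was -0.69 ± 0.27 in endothelial cells (adjusted p = 0.046, lost in 8 of 9 tested alternatives) and 1.09 ± 0.25 in stellate cells (0.0017, and 0.071 without the library term). Gadd45b was 1.31 ± 0.37 over beta cells in alpha (adjusted p = 0.012) and 1.28 ± 0.39 in PP cells (0.023), and Gadd45a was 1.22 ± 0.27 (0.0011) and 1.15 ± 0.34 (0.018).

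The heat shock genes were higher in endothelial cells in 4 of 4 cases, in stellate cells in 3, in PP and delta cells in 2 each and in alpha cells in 1. Hspb1 (chromosome 5, 135887919 to 135889563), a small heat shock protein, had 1565 and 2075 CPM in endothelial cells, 423 and 1269.8 in stellate cells, 36.6 and 16.1 in macrophages, 13.6 and 18.8 in alpha cells, 106 and 208 in PP cells, 131 and 256 in delta cells and 4.04 and 5.24 in beta cells. Endothelial and stellate values lay above all endocrine values, and delta and PP values above alpha and beta values. The fold over beta cells was 5.40 ± 0.35 in PP (adjusted p = 4.1e-12), 5.35 ± 0.34 in delta (1.4e-12) and 2.18 ± 0.38 in alpha cells (8.5e-05). The alpha call of Hspb1 turned to -0.084 with the authors' clusters from transcripts (adjusted p = 0.91). Hspa1a, the inducible Hsp70 gene, had 106 and 1112 CPM in endothelial cells, 115 and 1209 in stellate cells, 18.3 and 2226 in macrophages, 6.28 and 62.6 in alpha cells, 12.0 and 132 in PP cells, 15.7 and 181 in delta cells and 12.3 and 35.3 in beta cells. Hspa1a and Hspa1b are near-identical copies, so the split of reads between them is uncertain. Hspa1a was 1.54 ± 0.34 over beta cells in delta (adjusted p = 0.0016) and 1.48 ± 0.39 in PP cells (0.0082), and Hspa1b was 2.85 ± 0.49 over the endocrine mean in endothelial cells (2.6e-05). Dnajb1, an Hsp40 partner of Hsp70, had 149 and 504 CPM in endothelial cells, 69.1 and 524 in stellate cells, 54.9 and 452 in macrophages, 50.2 and 129 in alpha cells, 33.9 and 193 in PP cells, 67.9 and 198 in delta cells and 53.1 and 78.9 in beta cells. Its fold over beta cells was 0.66 ± 0.30 in alpha (adjusted p = 0.14), 0.80 ± 0.33 in PP (0.094) and 0.82 ± 0.29 in delta cells (0.059).

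All 3 Id genes, which encode inhibitors of bHLH transcription factors, were higher in endothelial, stellate, alpha and PP cells, and 2 in delta cells. Id3 (chromosome 4, 136143497 to 136145755) stood at 1541 and 484 CPM in endothelial cells, 1567 and 2086 in stellate cells, 9.15 and 177 in macrophages, 43.9 and 77.9 in alpha cells, 23.0 and 63.8 in PP cells, 8.27 and 11.9 in delta cells and 2.20 and 1.14 in beta cells. Alpha and PP values lay above delta and beta values, and stellate cells were highest. The fold over beta cells was 5.49 ± 0.53 in alpha (adjusted p = 3.9e-09), 4.91 ± 0.61 in PP (7.2e-07) and 2.57 ± 0.61 in delta cells (0.0032). With cluster 3 alone standing for delta cells, the Id3 fold was 0.55 (adjusted p = 0.83). Id1 had 785 and 235 CPM in endothelial cells, 384 and 564 in stellate cells, 0 and 0 in macrophages, 16.7 and 31.9 in alpha cells, 9.84 and 47.4 in PP cells, 4.35 and 2.79 in delta cells and 0.184 and 0 in beta cells. Over both libraries there were 38 UMIs in PP cells against 1 in beta cells (ratio of CPM 245, 95% interval 41.4 to 9920.1). In the endothelial clusters Id1 stood at 945 and 1159 CPM in cluster 11 and at 53.5 and 31.1 CPM in cluster 15. Id3 stood at 1867 and 2209 CPM in cluster 11 and at 53.5 and 104 CPM in cluster 15. The endothelial folds over the endocrine mean were 5.76 ± 0.29 for Id3 and 6.45 ± 0.36 for Id1 (adjusted p = 6.8e-16 and 1.1e-14). In stellate cells they were 6.67 ± 0.29 and 6.45 ± 0.46 (3.4e-17 and 2.7e-12). Id2 was 1.29 ± 0.28 over beta cells in alpha (adjusted p = 9.9e-04) and 1.46 ± 0.33 in PP cells (0.0019).

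Alpha cells were then set directly against delta cells, a comparison added after the data were seen. Of the 45 genes, 14 were higher and 4 lower in alpha cells, where 3.56% of all genes were higher and 6.99% lower, or 10.5% in either direction. Klf4 (2.88 ± 0.28, adjusted p = 8.2e-09), Nr4a2 (2.30 ± 0.26, 1.3e-07), Socs3 (2.26 ± 0.27, 4.3e-07), Id3 (2.92 ± 0.44, 2.0e-05) and Sik1 (2.14 ± 0.35, 7.3e-05) led the higher genes. The lower ones were Hspb1 (-3.17 ± 0.32, 1.9e-08), Hspa1a (-1.10 ± 0.35, 0.04), Ccn1 (-3.35 ± 0.94, 0.017) and Zfp36l1 (-3.60 ± 0.93, 0.0092). The split was 9 higher and 8 lower without TMM scaling, where 243 and 2132 of all 13265 genes were called. It was 5 and 1 without the library term, where 161 and 472 were called.

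Endothelial cells were set against stellate cells in the same way. Of the 45 genes, 7 were higher and 1 lower in endothelial cells (3.11% and 4.02% of all genes, or 7.13% in either direction), and edgeR called 0 of them without the library term, where 6 had an unadjusted p under 0.05. With it, 14 had an unadjusted p under 0.05. DESeq2 called 6 higher and 1 lower of the 43 it tested, where it called 203 higher and 427 lower of all 13265 genes. Klf6 was 2.06 ± 0.40 (adjusted p = 8.9e-04), Nfkbia 1.29 ± 0.29 (0.0048), Dusp1 1.27 ± 0.30 (0.0057), Hspb1 1.19 ± 0.28 (0.0064) and Id2 1.38 ± 0.34 (0.01). Gadd45g was -1.78 ± 0.34 (6.6e-04). Without the duct-marker cluster 15, Klf6 no longer passed (adjusted p = 0.62) and Id2 turned to -0.19 (0.88). Only 10 endothelial cells of replicate 2 were then left.

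More of the genes were seen per endothelial or stellate cell than per beta cell in each library. With every cell thinned to 1000 UMIs, a median endothelial cell held UMIs of 11 and 19 of the 45 genes, a stellate cell 9 and 14, a macrophage 6 and 13, an alpha cell 4 and 6, a PP cell 4 and 8, a delta cell 3 and 5 and a beta cell 2 and 3. At least 10 of the genes were seen in 68.2 and 84.6% of endothelial cells, and in 0.0457 and 0.460% of beta cells. The number of all genes seen per cell at this depth was not counted by type. The contrast is therefore not shown to be particular to the set. Thinning left out 56 of 141 endothelial, 76 of 118 stellate, 12 of 62 macrophages, 59 of 961 alpha, 1 of 283 PP, 165 of 965 delta and 95 of 2284 beta cells of replicate 1 and none of replicate 2. At that depth Fos was seen in 52.9 and 88.5% of endothelial, 76.2 and 81.5% of stellate, 68.2 and 86.2% of alpha, 63.8 and 92.7% of PP, 45.6 and 68.9% of delta and 23.8 and 34.7% of beta cells. Unthinned, the Fos shares were 52.5 and 96.2% in endothelial and 45.5 and 91.7% in beta cells. Fos UMIs were thus seen in many cells of every type, beta cells included.

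Other genes of the set were seen in few beta cells at the same depth. Hspb1 was seen in 75.3 and 80.8% of endothelial, 12.4 and 16.0% of delta and 0.274 and 0.230% of beta cells. Atf3 was seen in 4.99 and 28.0% of alpha, 2.84 and 56.1% of PP and 0.183 and 1.15% of beta cells. Free RNA can give UMIs in cells that do not express a gene, and its part in these shares was not tested. Median depths before thinning were 1121 and 10417 UMIs in endothelial, 1959 and 8917 in alpha, 2796 and 13076 in PP, 2015 and 12693.5 in delta and 2223.5 and 9947 in beta cells.

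The spread between cells was wider, at the median, than that of all genes at the same depth, which were not matched to the set by mean level. Variance over mean of thinned UMIs is near 1 for counts that vary by sampling alone. Its median over the genes of the set with at least 20 thinned UMIs was 1.16 and 2.73 in endothelial cells (all genes 1.12 and 1.49), 1.60 and 2.83 in stellate cells (1.46 and 1.63), 1.11 and 1.21 in alpha cells (1.01 and 1.01), 1.19 and 1.75 in PP cells (1.02 and 1.04), 1.13 and 1.18 in delta cells (1.02 and 1.02) and 1.05 and 1.08 in beta cells (1.00 and 1.01). Fos alone stood at 1.54 and 4.48 in stellate, 1.46 and 1.89 in PP, 1.27 and 1.60 in alpha and 1.12 and 1.43 in beta cells. In macrophages of replicate 1 the median was 1.28 (all genes 1.26). Endothelial cells of replicate 2 pool clusters 11 and 15. For the UMIs of the whole set summed per cell, variance over mean there was 22.4 in the type, 7.76 in cluster 11 and 31.2 in cluster 15. The parts of mean level and of pooled clusters in the wider spread were not tested. All these values are descriptions of cells within 2 libraries, with no test.

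The set stood lower in replicate 1 than in replicate 2 in every type, where the median over all genes was close to even. With replicate 1 over replicate 2, the median log2 ratio over the genes with at least 20 UMIs was -1.29 in endothelial cells (all genes -0.02), -0.54 in stellate cells (0.10), -1.66 in macrophages (-0.10), -0.83 in alpha cells (-0.05), -1.47 in PP cells (0.0042), -0.68 in delta cells (0.13) and -0.48 in beta cells (0.04). The 95% counting interval of the ratio lay under 1 for 28 of 41 genes in endothelial cells (19.7% of all genes with at least 20 UMIs there), 16 of 30 in stellate cells (13.9%), 18 of 26 in macrophages (17.9%), 27 of 38 in alpha cells (16.9%), 28 of 35 in PP cells (10.8%), 23 of 43 in delta cells (9.21%) and 20 of 37 in beta cells (11.8%). It lay above 1 for 4 genes in endothelial cells (19.1% of all), 1 in stellate cells (16.6%), 1 in macrophages (7.99%), 2 in alpha cells (10.2%), 2 in PP cells (7.57%), 4 in delta cells (19.8%) and 5 in beta cells (15.9%). There is 1 library on each side, so these intervals cover counting error only and compare libraries, not conditions. The libraries also differ in depth and cell number, as given above, and their part in this shift was not tested. Thinned to 1000 UMIs per cell, the medians kept their sign in every type.

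Atf3 and Hspa1a lay far under the median ratio in most types. Atf3 in endothelial cells had a ratio of replicate 1 to replicate 2 of 0.0169 (interval 0.00900 to 0.0291), in PP cells 0.0269 (interval 0.0171 to 0.0405), in alpha cells 0.148 (interval 0.122 to 0.179) and in beta cells 0.147 (interval 0.0596 to 0.315). For Hspa1a the ratio was 0.0952 (interval 0.0590 to 0.146) in endothelial, 0.0864 (interval 0.0601 to 0.121) in delta and 0.348 (interval 0.258 to 0.467) in beta cells. In endothelial cells the clusters held unequal shares of the 2 libraries, so the Atf3 levels are also given by cluster: 41.1 and 1003 CPM in cluster 11 and 160.5 and 4288 CPM in cluster 15, higher in replicate 2 in both. Id3 went the other way in endothelial cells, with a ratio of 3.18 (interval 2.64 to 3.85), while within cluster 11 alone it stood at 1867 and 2209 CPM. In alpha cells the Id3 ratio was 0.564 (interval 0.430 to 0.735).

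**Figure D4:**
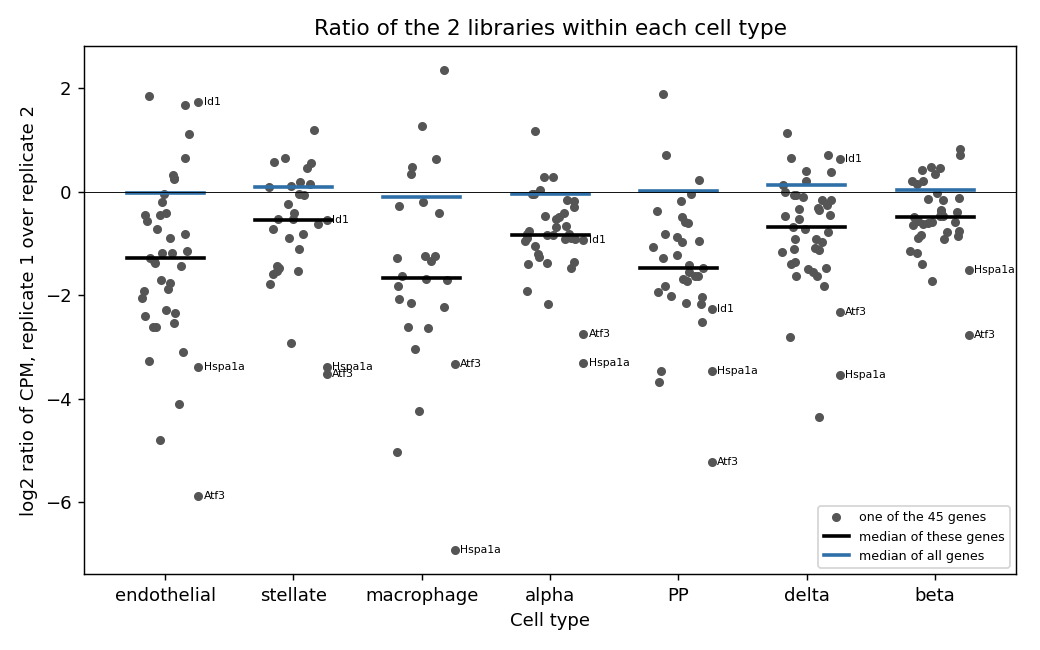
Log2 ratio of replicate 1 over replicate 2 for each gene of the set in each cell type, for genes with at least 20 UMIs in the type, with the median of these genes and of all such genes as lines. The set lies under the median of all genes in each of the 7 types, and Atf3, Hspa1a and Id1 are labelled.

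Long reads assign UMIs to transcripts, and for 12 of the 45 genes the tables hold a transcript that GENCODE M21 puts in the retained-intron class. Of these, 11 had at least 50 transcript UMIs, and in 4 the class took at least 5%: Fosb with 89.1% (4580 of 5142 UMIs), Fosl2 with 20.4% (22 of 108), Gadd45a with 8.06% (32 of 397) and Dusp1 with 7.93% (254 of 3203). Transcript UMIs covered over 95% of gene UMIs for 25 of the 45 genes and under 50% for 12, Egr1, Nr4a2 and Myc among them, so shares are shares of the UMIs that were assigned.

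For Fosb nearly all assigned UMIs of replicate 1 fell on Fosb-204, annotated as 1 uninterrupted exon at chromosome 7, 19306416 to 19310044, minus strand, 3629 bases long. It takes in whole the introns 1 (1865 bases) and 2 (453 bases) of the spliced Fosb-201 and 143 bases of intron 3. For Dusp1 the class holds Dusp1-203 with 249 UMIs and a shorter transcript with 5. Dusp1-203, chromosome 17, 26505591 to 26508474, minus strand, keeps the 369 bases of intron 2 of Dusp1-202, inside its coding region. The ends of these introns are shown to mark where a spliced and an unspliced read would part. Each is read 5′ to 3′ on the minus strand of GRCm38 from Fosb-204 or Dusp1-203, with 20 bases of the neighbouring exon and the intron's GT or AG in capitals.
Fosb intron 1, start, chr7:19309286-19309325, minus strand: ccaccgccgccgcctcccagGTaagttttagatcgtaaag
Fosb intron 1, end, chr7:19307421-19307478, minus strand: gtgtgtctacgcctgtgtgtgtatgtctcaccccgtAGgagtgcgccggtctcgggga
Fosb intron 2, start, chr7:19307100-19307139, minus strand: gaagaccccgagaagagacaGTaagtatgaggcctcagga
Fosb intron 2, end, chr7:19306647-19306704, minus strand: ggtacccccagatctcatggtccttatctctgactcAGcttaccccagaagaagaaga
Dusp1 intron 2, start, chr17:26507554-26507593, minus strand: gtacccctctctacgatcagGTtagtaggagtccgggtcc
Dusp1 intron 2, end, chr17:26507185-26507242, minus strand: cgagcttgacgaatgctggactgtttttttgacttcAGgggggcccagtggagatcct

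The Fosb share was high in every type of replicate 1 and differed between types in replicate 2. In replicate 1 it was 100% (48 of 48 UMIs) in endothelial, 95.4% (62 of 65 UMIs) in stellate, 97.2% (762 of 784 UMIs) in alpha, 97.9% (285 of 291 UMIs) in PP, 98.0% (753 of 768 UMIs) in delta and 98.1% (718 of 732 UMIs) in beta cells. In replicate 2 it was 31.7% (26 of 82 UMIs, interval 21.9 to 42.9%) in endothelial, 36.4% (12 of 33 UMIs) in stellate, 56.4% (203 of 360 UMIs, interval 51.1 to 61.6%) in alpha, 38.2% (55 of 144 UMIs, interval 30.2 to 46.7%) in PP, 87.4% (909 of 1040 UMIs, interval 85.2 to 89.4%) in delta and 94.7% (728 of 769 UMIs, interval 92.8 to 96.1%) in beta cells. Endothelial, stellate and PP cells were low there, with alpha cells between them and the delta and beta cells. The share of Fosb gene UMIs that carried a transcript also differed, at 85.7 and 33.2% in endothelial, 85.4 and 31.7% in alpha and 80.7 and 61.5% in beta cells, and its part in the shares was not tested. No comparison of the Fosb share passed in edgeR's diffSpliceDGE (adjusted p = 0.76 for alpha against beta, 0.999 for delta, 0.74 for PP and 0.75 for endothelial and stellate cells against endocrine cells).

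For Dusp1 the share was at most 2.27% in endothelial and stellate cells, and it was highest in delta and beta cells in replicate 1 and in beta cells in replicate 2. In replicate 1 it was 2.27% (3 of 132 UMIs) in endothelial, 2.00% (1 of 50 UMIs) in stellate, 16.2% (29 of 179 UMIs) in alpha, 14.7% (17 of 116 UMIs) in PP, 45.5% (45 of 99 UMIs) in delta and 42.9% (42 of 98 UMIs) in beta cells. In replicate 2 it was 0.697% (4 of 574 UMIs) in endothelial, 1.79% (1 of 56 UMIs) in stellate, 2.04% (12 of 587 UMIs) in alpha, 0.433% (1 of 231 UMIs) in PP, 4.25% (31 of 730 UMIs) in delta and 26.5% (65 of 245 UMIs) in beta cells. Over both libraries the share was 5.35% in alpha cells against 31.2% in beta cells, a difference that passed (diffSpliceDGE, adjusted p = 1.2e-07, where 1.76% of the 2269 genes tested passed) and was lower in alpha cells in both libraries. It did not pass without the library term (adjusted p = 0.49) or where at least 100 UMIs were required on each side (0.089). Dusp1 gene UMIs that carried a transcript were 68.3 and 70.9% in alpha, 61.1 and 68.0% in delta and 49.7 and 46.8% in beta cells. In endothelial cells they were 70.6 and 79.3%, and the part of this difference in the shares was not tested. Delta cells (9.17%), PP cells (5.19%) and endothelial with stellate cells (1.11%, against 10.6% in endocrine cells) did not pass (adjusted p = 0.065, 0.21 and 0.062, where 0.246%, 0.358% and 2.05% of genes passed), and the delta value was 0.034 at 100 UMIs. Gadd45a stood at 4.85% in alpha, 10.8% in delta and 11.1% in beta cells (adjusted p = 0.67 for alpha and 0.999 for delta against beta cells).

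**Figure D5:**
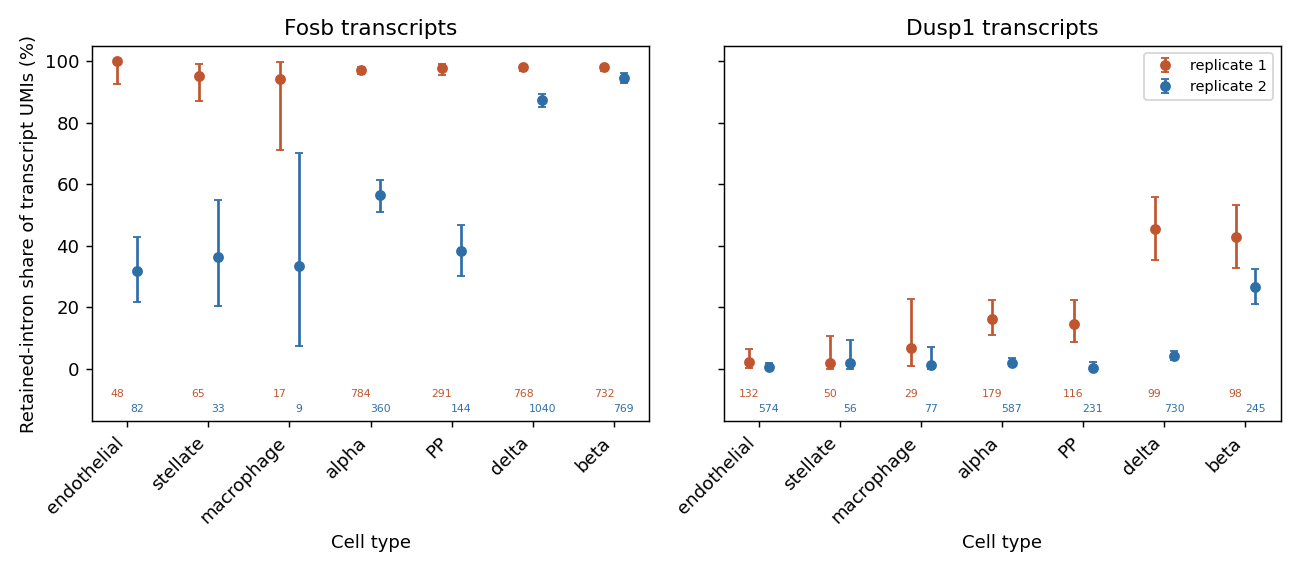
Share of transcript UMIs on retained-intron transcripts of Fosb and Dusp1 (%) by cell type, with exact 95% binomial intervals, separate points for replicates 1 and 2, and the transcript UMIs printed under each point. The Fosb share is between 94.1 and 100% in every type of replicate 1 and ranges from 31.7 to 94.7% in replicate 2, and the Dusp1 share is highest in beta and delta cells of replicate 1.

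Further lists placed the set beside related programs. For scale, 17.9% of all genes were higher and 15% lower in endothelial cells, and 10.2 and 6.47% in stellate cells. The shares were 9.13 and 9.91% in alpha, 8.89 and 8.43% in PP and 8.78 and 5.01% in delta cells. Of 28 other immediate early and stress-induced genes that were tested, 15 were higher and 2 lower in endothelial, 12 and 0 in stellate, 11 and 4 in alpha, 11 and 3 in PP and 1 and 2 in delta cells. Plk2, a kinase induced by serum, was 2.78 ± 0.46 (adjusted p = 3.1e-05) in alpha over beta cells, and Sgk1, a glucocorticoid- and serum-induced kinase, was 9.57 ± 0.35 (adjusted p = 1.2e-18) over the endocrine mean in endothelial cells. The 24 upstream kinases and transcription factors gave 7 higher and 0 lower in endothelial, 1 and 2 in alpha, 2 and 3 in PP and 0 and 1 in delta cells. In stellate cells edgeR called 0 of them, and 2 had an unadjusted p under 0.05. Of 18 other heat shock and chaperone genes, 3 were higher and 3 lower in endothelial, 2 and 1 in stellate, 1 and 0 in alpha, 3 and 0 in PP and 3 and 0 in delta cells. These were 16.7% each way in endothelial and 11.1 and 5.56% in stellate cells, near the shares of all genes. The 13 genes of the unfolded protein and integrated stress responses were lower in 8 cases in alpha, 5 in PP and 7 in delta cells against beta cells. In edgeR 0 of them were higher there, while 10, 6 and 10 had an unadjusted p under 0.05 in either direction. In endothelial cells 1 was higher and 7 lower, and in stellate cells 2 and 2. Nupr1, a stress-induced chromatin regulator, was -4.78 ± 0.44 (adjusted p = 1.6e-09), and Chac1, an ATF4 target that degrades glutathione, was -2.26 ± 0.29 (adjusted p = 7.3e-07) in alpha against beta cells.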

How the data were processed

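Islet cells of 2 modified 5′ long-read libraries were analysed. The deposited tables hold raw UMI counts of every cell per gene and per annotated transcript. Library, cluster and cell type of each cell come from the cell table that the authors deposited. The build mm10 (GRCm38) and the Seurat package are named in the submitters' processing notes, while aligner, counting tool and strand use are not given in the sources used here, so reads of overlapping or antisense genes cannot be told apart. Whether the libraries came from separate animals is not stated, so p-values cannot be taken to cover the spread between animals. They rest on the spread that the sums of these 2 libraries keep after the cell type and library terms.

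Counts were added up by library and authors' cell type. Types with 20 or more cells in both libraries, 6 in number, entered the fit, and macrophages, with 7 cells in replicate 2, are described only. The 12 sums entered 1 model in edgeR 4.0.16 (R 4.3.3) with TMM scaling, filterByExpr, a quasi-likelihood test, cell type and library as terms, and 5 residual degrees of freedom. P-values were adjusted by Benjamini-Hochberg over 13265 genes at 0.05. The replicate number is the library, and each library gave every cell type from 1 preparation, so the library pairs the sums. Standard errors are the size of the log2 fold change over the root of the test's F. Retained-intron shares were tested with diffSpliceDGE on UMIs joined to GENCODE M21 (69648 of 69994 transcripts, 99.9% of UMIs), for genes with at least 50 UMIs on each side and at least 10 retained-intron UMIs. Per-cell values used cells thinned to 1000 UMIs. Intervals are exact, Poisson for counts and Clopper-Pearson for shares, at 95%, and cover counting error only. A UMI count of 0 in a type allows up to about 3 UMIs. That is a 1-sided 95% bound and lies under the upper end of the exact interval.

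Barcodes outside the authors' cell table were left out, and no doublets were removed in the main fit: Scrublet (scanpy 1.11.5) called 6 cells (0.125%) and 14 cells (1.28%) by its own threshold, so an alternative left out the 6% highest scores. Other alternatives were no TMM scaling, DESeq2 1.42.0, no filter, no library term, either library alone, the authors' clusters from transcripts, thinned cells, macrophages in the fit, delta cluster 3 alone, and no duct-marker cluster. The pipeline was tested on simulated data. Named in full are up to 6 genes per comparison by adjusted p, the gene of each role with the most UMIs, and genes with a retained-intron share of at least 5% in any type (50 or more UMIs in at least 2 types). The members, lists and rules were chosen with earlier results of these data known.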

Additional observations from a re-analysis of the deposited data

Results flagged for a closer look

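Gadd45g differed in direction between the non-endocrine types, at 1.09 in stellate cells against the endocrine mean and -0.69 in endothelial cells against it. The difference itself, endothelial against stellate, was -1.78 ± 0.34 (edgeR, adjusted p = 6.6e-04, and 0.073 without the library term). Mcl1, an anti-apoptotic Bcl-2 relative, was 0.54 in alpha against beta cells and -0.34 in PP against beta cells, with the same sign in each library within each comparison. Neither Mcl1 value passed the test, and their difference was not tested. Myc was 1.22 in PP against beta cells and -0.67 in delta against beta cells, again with 1 sign in both libraries. Neither Myc value passed, and their difference was not tested.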

How the results depend on the processing

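The count of higher genes among the 45 stayed within 1.5 times its main value in endothelial against endocrine and stellate against endocrine cells under each tested alternative. Without the replicate block it was 15 in alpha (main 29), 4 in delta (21), 16 in PP cells (27), 0 in endothelial against stellate cells (7) and 5 in alpha against delta cells (14), which was 9 without TMM scaling. Of all 13265 genes, 616, 666, 576, 163 and 161 were higher without the block, in the same order. In alpha against delta cells 243 were higher without TMM scaling. TMM factors ran from 0.80 in alpha to 1.22 in endothelial cells, so without them the median of all genes shifted to -0.39 in alpha, -0.42 in PP and 0.22 in endothelial cells, and the splits were 24 higher and 4 lower in alpha, 24 and 2 in PP, 21 and 3 in delta, 40 and 0 in endothelial and 36 and 0 in stellate cells. Over all 13265 genes they were 708 and 3335 in alpha, 656 and 2746 in PP and 1111 and 717 in delta cells. Endothelial cells had 3086 and 1262 of all genes, and stellate cells 1586 and 472. With 1 library left out there are no residual degrees of freedom, so medians only are given: 1.25 to 1.49 in alpha, 0.43 to 0.97 in delta, 0.98 to 1.87 in PP, 2.19 to 2.94 in endothelial and 1.76 to 1.84 in stellate cells, 0.056 to 0.72 for endothelial against stellate and 0.63 to 0.66 for alpha against delta cells. Of 720 tested alternatives for 84 named values, 652 kept direction and side of the threshold, 61 lost the threshold (36 of them without the block), 4 gained it and 3 reversed. The reversed ones were Hspb1 in alpha against beta cells with clusters from transcripts (-0.084), Gadd45g in endothelial cells with thinned cells (0.041) and Id2 in endothelial against stellate cells without the duct-marker cluster (-0.19). Egr1 in endothelial cells was -0.034 to 1.83 with 1 library left out, the lower value without replicate 2. Retained-intron calls among the 45 went to 0 in alpha against beta cells without the block and at 100 UMIs (Dusp1, main 1), and to 1 in delta against beta cells at 100 UMIs (main 0). Where a value changed, the cause was not tested. Depth limits Egr3, Nr4a3 and Fosl2, at 39, 29 and 113 UMIs in all.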
